A study of Mus musculus with 48 samples.

Results

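The 5 genes described here are Nrtn, Itih5, Vasn, Nrep and Zfp296, whose RNA was much lower in epidermal stem cells of aged mice than of young mice. They were picked by size of fall among the 12823 genes tested, where they took ranks 3, 4, 10, 6 and 9, and they are read by 7 of the 28898 probe sets that carry exactly 1 gene symbol (45141 probe sets in all). All 5 genes passed the filter on dim signals, which left out the lowest 25% of gene means. The difference between the ages chose the genes, so it is given below as a description with no test. For these 5 genes tests are given only for time of day, which played no part in the choice. Tests of the difference between the ages are given for other genes, those of the pathway and cell type lists.

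The RNA came from epidermal stem cells of wild-type C57B6/J female mice and was measured on 1-colour Affymetrix arrays, 1 array a mouse. The young group had an age of 8 weeks and the aged group of 102 to 116 weeks. Every 4 h from ZT0 to ZT20 (zeitgeber time), 4 mice of each age were taken, which gives 6 times of day, 24 young arrays and 24 aged arrays. Values are log2 probe set signals as deposited, so a difference of 1 is a doubling, and signals of different probe sets are not compared with each other.

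The genes belong to different branches of signalling and matrix biology. Nrtn encodes neurturin, a secreted ligand of the GDNF family that acts on neurons through the co-receptor GFRα2 and the receptor tyrosine kinase RET, and skin is a known target field of such sensory neurons. Itih5 encodes a heavy chain of the inter-alpha-trypsin inhibitor family, secreted proteins that bind the matrix polysaccharide hyaluronan. Vasn encodes vasorin, a membrane glycoprotein that binds TGF-beta and is shed by the protease ADAM17. Nrep, also called P311, encodes a small intracellular protein that has been linked to TGF-beta production and wound repair. Zfp296 encodes a zinc finger protein known from pluripotent cells and reprogramming, where it interacts with the NuRD chromatin complex.

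The promoters of Zfp296 and Vasn are shown because these genes moved together from mouse to mouse at old age, as given below. Each line holds the 250 bases before the RefSeq transcription start (GRCm38.p6), chr7:19577037-19577286 on the plus strand for Zfp296 and chr16:4639695-4639944 on the plus strand for Vasn, with capitals for the GC box, GGGCGG on either strand.
Zfp296: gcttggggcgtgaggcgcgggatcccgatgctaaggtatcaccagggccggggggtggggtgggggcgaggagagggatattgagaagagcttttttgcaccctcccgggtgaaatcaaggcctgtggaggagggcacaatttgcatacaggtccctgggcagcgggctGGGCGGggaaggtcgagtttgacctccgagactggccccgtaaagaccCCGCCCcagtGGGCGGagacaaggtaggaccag
Vasn: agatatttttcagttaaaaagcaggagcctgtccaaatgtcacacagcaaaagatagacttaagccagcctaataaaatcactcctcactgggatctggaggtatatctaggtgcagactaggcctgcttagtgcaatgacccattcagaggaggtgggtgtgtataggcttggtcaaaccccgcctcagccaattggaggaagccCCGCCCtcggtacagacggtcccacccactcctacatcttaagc
In the table's windows of 300 bases, from 250 before to 50 after the start, Zfp296 holds 3 GC boxes and Vasn 1, and 35.7% of all 32851 windows hold at least 1. The upstream stretch of Zfp296 has a GC content of 64.0% and 14 CpG dinucleotides, and that of Vasn 49.6% and 4. The CCAAT box (CCAAT on either strand) stands at 2 overlapping places in the Vasn window and at none in that of Zfp296, against 37.4% of all windows. The E-box CACGTG, the letters that the core clock factors are known to bind, occurs once in the Zfp296 window, starting at the first transcribed base and so just past the printed stretch. It occurs in 7.15% of all windows and in none of those of Vasn, Nrtn and Itih5. Neither the AP-1 letters TGANTCA, present on either strand in 7.81% of windows, nor the TATA box with the letters TATAAA, present in 13.6%, was found in the windows of these 4 genes.

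Averaged over the day, the signal fell by 1.16 ± 0.09 (log2 ± SE of the limma fit, 24 aged against 24 young arrays) for Nrtn and by 1.01 ± 0.10 for Itih5, which is 2.23 and 2.02 times less signal in aged cells. It fell by 0.87 ± 0.17 for Nrep, by 0.79 ± 0.16 for Zfp296 and by 0.78 ± 0.19 for Vasn, or 1.83, 1.73 and 1.72 times less. Of all tested genes 8.73% were lower and 9.89% higher in aged cells at an adjusted p under 0.05. Whether that balance holds depends on the scaling. The values as deposited gave 1119 lower and 1268 higher (46.9% of calls lower). Cyclic loess between arrays kept much the same balance, with 1201 lower and 1303 higher. Arrays centred on their median shifted it, to 1454 lower and 956 higher (60.3%). The genes that ranked above or between these were Ltbp1 (-1.67), Slc38a4 (-1.20), Il1f9 (-0.93), Cldn7 (-0.84) and Sprr1b (-0.84), and just outside rank 10 came Postn (-0.76) and Lor (-0.75). For no member, and for 0% of all tested genes, was every aged array below every young array. In bulk RNA of this kind, fewer cells of a type and less RNA per cell cannot be told apart.

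**Figure D1:**
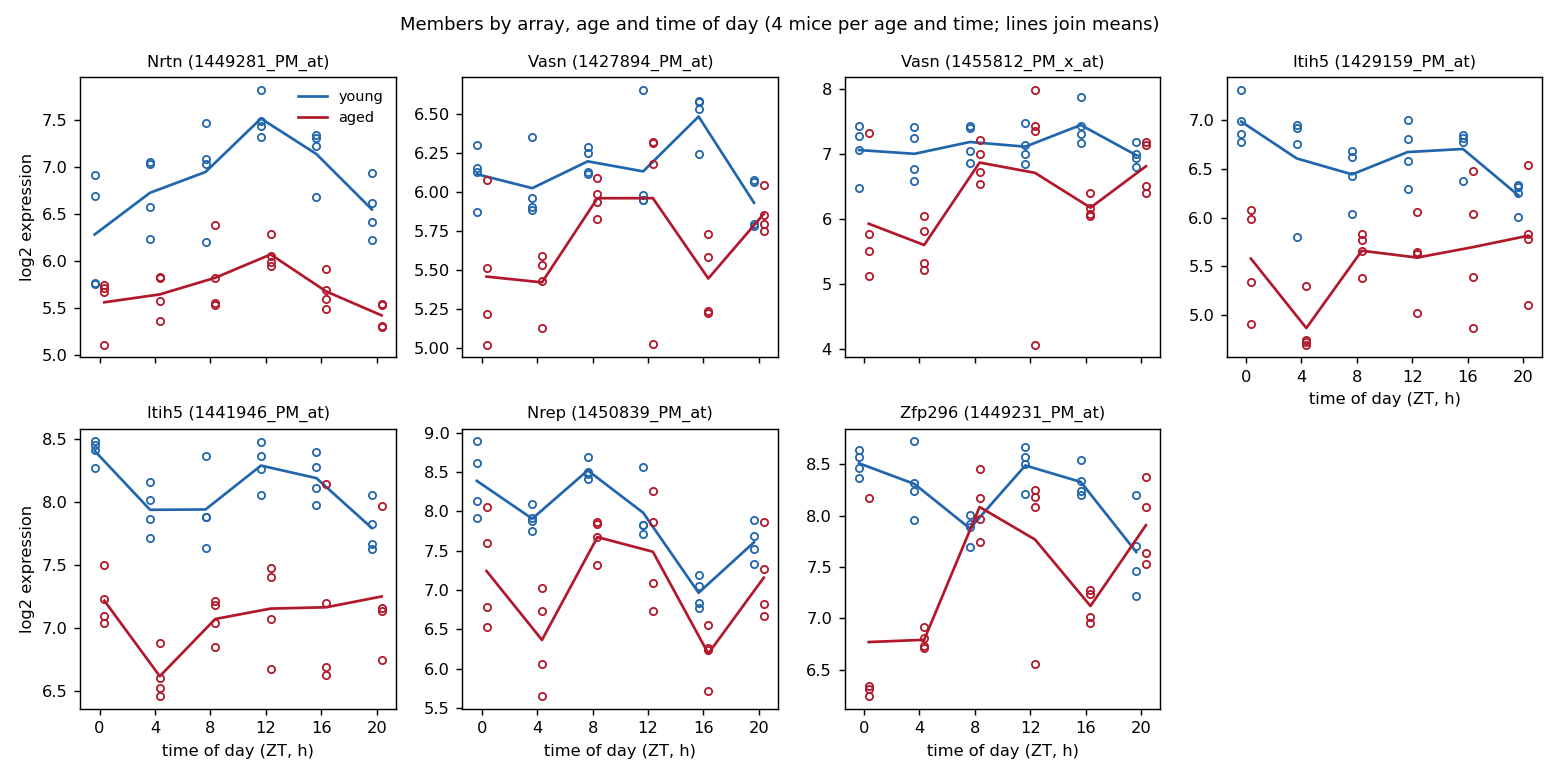
Log2 signal of the 7 probe sets on each of the 48 arrays (vertical axes, with their own ranges) against time of day in hours (ZT), young in blue and aged in red, with 4 mice per age and time. Lines join the means. Nrtn and Itih5 keep most aged points under the young ones, while aged Zfp296 and the brighter Vasn probe set overlap the young points at ZT8 and ZT20.

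Nrtn (probe set 1449281_PM_at) lies on chromosome 17, 56751323 to 56757548, in GRCm38.p6. Its signal ran from 5.76 through a median of 6.98 to 7.81 in young cells and from 5.11 through 5.68 to 6.38 in aged cells. All 24 aged arrays were below the young median, and 15 of them were below the lowest young array. At ZT0 the young arrays read 5.76, 5.77, 6.91 and 6.68 and the aged ones 5.75, 5.11, 5.67 and 5.71, so that the groups only just did not overlap. At ZT12 the young arrays read 7.32, 7.48, 7.81 and 7.43 against 5.95, 6.05, 5.99 and 6.28, and at ZT16 7.30, 7.22, 7.34 and 6.67 against 5.92, 5.49, 5.60 and 5.69. The gap between the ages was thus widest at ZT12, -1.44 ± 0.13 (SE), and ZT16, -1.46 ± 0.18, and smallest at ZT0, -0.72 ± 0.34. It was -1.08 at ZT4 and -1.12 at both ZT8 and ZT20. A difference between the ages that depends on time was not past the threshold for Nrtn (adjusted p = 0.633 by limma). The arrays of the 2 ages overlapped only at ZT8, where young arrays read 6.20, 7.46, 7.02 and 7.08 and aged arrays 5.55, 5.82, 5.53 and 6.38.

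Young Nrtn followed the time of day. A cosine with a period of 24 h was fitted to each gene within each age, and its amplitude is the rise from the mean to the peak. In young cells Nrtn had an amplitude of 0.55 ± 0.09 (SE) with its peak at 12.03 h, a peak 2.13 times the trough, and passed the limma F test (adjusted p = 0.000358, Benjamini-Hochberg over all tested genes), as did 6.27% of tested genes. It was the only member of the 5 to pass that test in young cells. In aged cells the amplitude was 0.26 ± 0.09 with its peak at 10.4 h (adjusted p = 0.325 by limma), where 1.36% of genes passed. The difference of the cosines between the ages was not past the threshold for Nrtn (adjusted p = 0.667 by limma), and no gene passed it (0% of tested genes, 982 at an unadjusted p under 0.05, and 4 at an adjusted p under 0.05 with array weights). The smaller aged amplitude is therefore not shown to differ from the young one. With the 6 times as separate groups, Nrtn differed between times in young cells (adjusted p = 0.0015 by limma) but not past the threshold in aged cells (0.348), where 17.50% and 8.36% of all genes passed.

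Itih5 lies on chromosome 2, 10153536 to 10256529, and has a pair of probe sets. The brighter one, 1441946_PM_at, ran from 7.62 through a median of 8.08 to 8.48 in young cells and from 6.46 through 7.08 to 8.14 in aged cells, and 22 of 24 aged arrays were below the lowest young one. Young arrays at ZT0 read 8.27, 8.45, 8.48 and 8.41 against 7.50, 7.23, 7.09 and 7.04 in aged cells. At ZT4 they read 7.71, 7.86, 8.16 and 8.01 against 6.61, 6.46, 6.52 and 6.88, a difference of -1.32 ± 0.13 (SE), the widest of the day for this probe set. The ages were also apart at ZT8 (-0.87 ± 0.17) and ZT12 (-1.13 ± 0.20). They overlapped at ZT16, where aged arrays read 8.14, 6.69, 7.20 and 6.63, and at ZT20, where they read 7.13, 7.16, 6.74 and 7.96. A single aged mouse in each of those groups reached the young range of 7.97 to 8.39 at ZT16 and of 7.62 to 8.05 at ZT20.

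The dimmer Itih5 probe set, 1429159_PM_at, gave a fall of much the same size, -1.07 ± 0.13 (SE) or 2.10 times. It too was widest at ZT4, -1.74 ± 0.31, with aged arrays at 4.74, 4.73, 4.70 and 5.30 and young arrays at 5.80, 6.95, 6.76 and 6.91, and smallest at ZT20, -0.41 ± 0.30 (-0.18 without aged replicate 3 and -0.66 without aged replicate 4). Both probe sets overlapped between the ages at ZT16 and ZT20 and at no other time. For Itih5 the adjusted p (limma) was 0.964 for a 24 h cosine in young cells, 0.574 in aged cells and 0.553 for a difference between the ages that depends on time. With time as separate groups it was 0.156 in young and 0.237 in aged cells, so no time-of-day pattern passed the threshold for this gene with 4 mice a time. With the young arrays fitted alone the time difference in young cells did pass (adjusted p = 0.0146).

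Vasn lies on chromosome 16, 4639945 to 4651166. Its brighter probe set, 1455812_PM_x_at, carries a suffix that the array maker gives to probe sets some of whose probes can also bind other transcripts. The young arrays ran from 6.47 through a median of 7.15 to 7.88 and the aged arrays from 4.06 through 6.40 to 7.98, so the aged range enclosed the young one. At ZT4 the young arrays read 7.41, 7.24, 6.58 and 6.76 and the aged arrays 6.04, 5.82, 5.21 and 5.32. At ZT16 they read 7.16, 7.31, 7.88 and 7.42 against 6.40, 6.04, 6.07 and 6.17. These were the times at which all aged mice were below all young mice, with differences of -1.41 ± 0.28 (SE) and -1.27 ± 0.17.

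At ZT8 and ZT20 the aged arrays of this probe set overlapped the young ones. Aged arrays read 6.72, 6.54, 6.99 and 7.22 at ZT8 against 6.85, 7.04, 7.40 and 7.43 in young cells, and 6.51, 7.19, 7.14 and 6.39 at ZT20 against 7.18, 6.79, 7.00 and 6.94. At ZT0 the aged arrays read 5.77, 5.50, 5.11 and 7.31, with replicate 4 inside the young range of 6.47 to 7.42. At ZT12 they read 4.06, 7.98, 7.35 and 7.43, with replicate 1 far below every other array of either age and the other 3 within or above the young range of 6.85 to 7.47. The difference at ZT12 was -0.40 ± 0.90 (SE) with that array and 0.48 without it. That array had the lowest weight of all 48 in limma's array weighting, 0.247.

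The tests of Vasn turned on that 1 array. With all arrays the age-by-time interaction, which asks whether the difference between the ages is the same at the 6 times, had an adjusted p of 0.571 (limma). Without aged ZT12 replicate 1 it was 0.00792, and with limma's array weights, which count that array less, 0.0141. Time of day in aged cells had an adjusted p of 0.143 with all arrays, 4.93e-05 without aged ZT12 replicate 1 and 0.032 without aged ZT0 replicate 4, and the aged cosine had 0.587 with all arrays and 0.0334 without aged ZT12 replicate 1. Young Vasn gave an adjusted p of 0.881 for the cosine and 0.941 for time as separate groups. The other probe set, 1427894_PM_at, fell by 0.46 ± 0.09 (SE), or 1.38 times, with the widest gap at ZT16 (-1.04 ± 0.15, aged 5.23, 5.73, 5.58 and 5.24 against 6.25, 6.53, 6.58 and 6.58) and differences of -0.24 ± 0.07 at ZT8 and -0.07 ± 0.10 at ZT20. Unlike the brighter probe set, it had all 4 aged arrays (5.83, 5.94, 6.09 and 5.99) below all 4 young arrays (6.13, 6.25, 6.12 and 6.29) at ZT8, by a narrow margin. Its ZT20 difference, within its error, ran from -0.13 to -0.02 with 1 array left out at a time, the former without aged replicate 2 and the latter without young replicate 1. Its interaction had an adjusted p of 0.175 over all probe sets (limma), of which 1.88% passed.

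Nrep, on chromosome 18 from 33437019 to 33464365, is read by 1450839_PM_at. Young arrays ran from 6.77 through a median of 7.88 to 8.89 and aged arrays from 5.65 through 6.92 to 8.26, and 22 of 24 aged arrays were below the young median. The course over the day had a similar outline at both ages, high at ZT8 and low at ZT16. Young arrays read 8.48, 8.69, 8.50 and 8.41 at ZT8 and 7.06, 7.20, 6.84 and 6.77 at ZT16, the latter all below every young array of any other time. Aged arrays read 7.84, 7.67, 7.32 and 7.86 at ZT8 and 5.72, 6.26, 6.55 and 6.24 at ZT16. At both times, and at ZT4, every aged mouse was below every young mouse.

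Nrep differed between times of day at both ages (adjusted p = 0.00136 in the young and 0.001 in the aged mice) by the limma F test with time as separate groups. The fitted cosine did not pass in either age, with an amplitude of 0.55 ± 0.17 (SE) and an adjusted p of 0.0932 in young cells and 0.24 ± 0.17 and 0.809 in aged cells (limma), and the young value was 0.0136 with each age fitted alone and 0.0333 with array weights. The gap between the ages was -1.54 ± 0.32 at ZT4, where aged arrays read 6.06, 5.65, 7.02 and 6.73 and young arrays 7.91, 8.09, 7.75 and 7.88. It was -1.14 ± 0.42 at ZT0, -0.50 ± 0.40 at ZT12 and -0.45 ± 0.29 at ZT20, and the ages overlapped at these 3 times. With 1 array left out the ZT12 value was -0.24 (without aged replicate 4), -0.30 (young replicate 3) or -0.75 (aged replicate 1), and the ZT20 value -0.29 (aged replicate 2) or -0.69 (aged replicate 4). The interaction of age and time was not past the threshold (adjusted p = 0.453 by limma).

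Zfp296, on chromosome 7 from 19577287 to 19580656, was lower in aged cells at some times of day and not at others. Its probe set, 1449231_PM_at, ran from 7.22 through a median of 8.24 to 8.73 in young cells and from 6.24 through 7.40 to 8.45 in aged cells. At ZT4 the young arrays read 8.73, 8.24, 8.32 and 7.95 and the aged arrays 6.73, 6.81, 6.71 and 6.91. At ZT16 they read 8.54, 8.34, 8.20 and 8.24 against 7.27, 7.01, 6.95 and 7.24. The ages were far apart at both times. The SD between mice was 0.319 in young and 0.092 in aged cells at ZT4, and 0.150 and 0.162 at ZT16. At ZT0 young arrays read 8.47, 8.37, 8.57 and 8.64 and aged arrays 6.31, 6.34, 6.24 and 8.18, so that 3 aged mice were low and 1 was near the young level.

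At ZT8 the aged arrays of Zfp296 read 7.75, 8.18, 7.96 and 8.45 against 7.69, 7.89, 7.92 and 8.00 in young cells. At ZT20 they read 7.53, 8.09, 7.63 and 8.38 against 7.46, 7.22, 7.70 and 8.20. At both times the ages overlapped and the aged mean was the higher, by 0.21 ± 0.16 (SE) at ZT8 and 0.26 ± 0.29 at ZT20. At ZT12 aged arrays read 6.55, 8.25, 8.18 and 8.08 against 8.50, 8.67, 8.21 and 8.57 in young cells, with replicate 1 apart from the other 3 aged mice. The differences at ZT0, ZT4, ZT12 and ZT16 were -1.74 ± 0.47, -1.52 ± 0.17, -0.72 ± 0.42 and -1.21 ± 0.11, which at ZT0 is 3.35 times less signal. The ZT12 difference was -0.32 without aged replicate 1. The positive differences were 0.09 without aged replicate 4 and 0.32 without aged replicate 1 at ZT8, and 0.10 without aged replicate 4, 0.12 without young replicate 2 and 0.45 without young replicate 4 at ZT20.

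**Figure D2:**
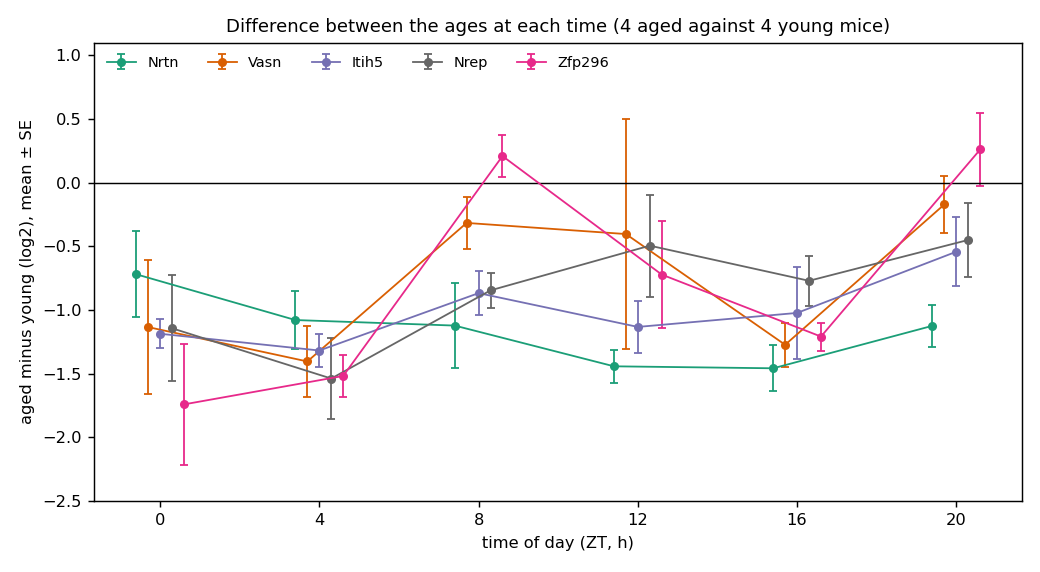
Aged minus young log2 signal of the brighter probe set of each gene at each time of day in hours (ZT), as the mean difference of 4 aged and 4 young mice with its SE. Zfp296 goes from -1.74 at ZT0 to 0.21 at ZT8 and 0.26 at ZT20, while Nrtn stays between -0.72 and -1.46.

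Of the 5 genes, Zfp296 alone had an age difference that changed with the time of day past the threshold with all arrays weighted equally (age-by-time interaction, adjusted p = 0.00152 by the limma F test with 5 degrees of freedom). It ranked 51 among the 12823 genes, of which 2.59% passed. Adjusted p was 0.633 for Nrtn and, as above, 0.553, 0.571 and 0.453 for Itih5, Vasn and Nrep. The Zfp296 interaction passed in all 57 alternatives, with adjusted p from 2.57e-06 to 0.00385. Aged Zfp296 differed between times (adjusted p = 0.00106 by limma, time as separate groups). In young cells the adjusted p was 0.0849, and it was 0.0138 without aged ZT0 replicate 4, 0.0238 without aged ZT12 replicate 1 and 0.0472 without young ZT20 replicate 4, each removal changing the call. The 24 h cosine passed in neither age (limma, adjusted p = 0.958 in young cells and 0.388 in aged ones). The aged course, low at ZT0, ZT4 and ZT16 and high at ZT8 and ZT20, has more than 1 high and low stretch in the day.

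Counted by time of day, all 4 aged mice were below all 4 young mice for 3 of the 5 genes at ZT0, 5 at ZT4, 2 at ZT8, 2 at ZT12, 4 at ZT16 and 1 at ZT20, taking the brighter probe sets. Over all tested genes the shares were 2.75%, 8.32%, 2.32%, 3.24%, 5.84% and 3.24% at the same times. The genes were chosen for this difference, so the counts stand as a description.

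Pooled over the day, mice of the same age and time differed more from each other at old age in 4 of the 5 genes. The SD between mice, pooled over the 6 times, was 0.316 in young and 0.873 in aged cells for Vasn, 0.200 and 0.406 for Itih5, 0.284 and 0.554 for Nrep and 0.249 and 0.552 for Zfp296. Nrtn went the other way, with 0.415 and 0.250. Over all tested genes the median SD was 0.193 in young and 0.183 in aged cells, and the ratio of aged to young SD of Vasn, Zfp296, Itih5 and Nrep was above that of 99.7%, 99.2%, 98.6% and 98.3% of genes. The Nrtn ratio of 0.601 was above that of 5.13%. These spreads were not tested. The genes were chosen by the size of the fall and not by its error, which can favour genes of wide spread, so the shares are a description. Single arrays weigh on the spreads, since the SD of 1.79 of aged Vasn at ZT12 includes the 4.06 of replicate 1. At ZT0 and ZT12, where 1 aged array stood apart, aged Zfp296 had SDs of 0.940 and 0.815. At ZT4, ZT8, ZT16 and ZT20 its aged SDs were 0.092, 0.301, 0.162 and 0.395, against 0.319, 0.132, 0.150 and 0.419 in young cells. For Vasn at these times they were 0.397, 0.300, 0.164 and 0.413 against 0.393, 0.283, 0.308 and 0.161.

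**Figure D3:**
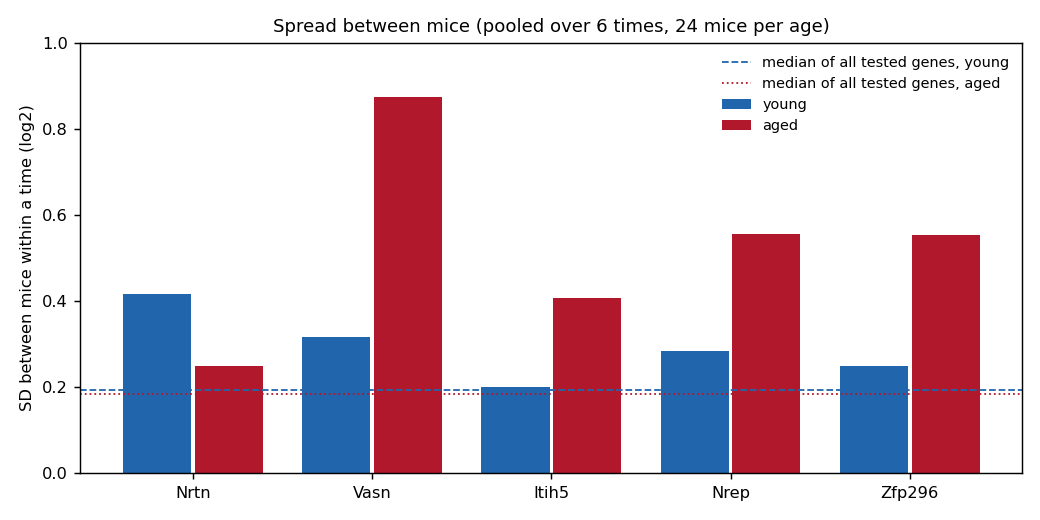
Pooled SD of log2 signal between mice of the same age and time (vertical axis) for each gene, young in blue and aged in red, with dashed and dotted lines at the medians over all tested genes (0.193 and 0.183). Vasn stands highest, at 0.873 in aged cells, and Nrtn is the gene whose young bar, 0.415, is the taller.

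Zfp296 and Vasn went up and down in the same aged mice. Over the 24 aged arrays their signals had a correlation of 0.85, against 0.10 over the 24 young arrays. With the mean of each age and time taken out, the correlation was 0.81 in aged and 0.02 in young arrays. Over all 48 arrays, both ages together, it was 0.70, and 0.42 without the 2 arrays whose Vasn deviations were farthest from their median. A large part of the correlation thus rests on those arrays. The arrays in question can be read from the values above: aged ZT0 replicate 4 was high for both genes (8.18 for Zfp296 and 7.31 for Vasn) and aged ZT12 replicate 1 low for both (6.55 and 4.06). The other pairs among the 5 genes had correlations of deviations between -0.24 and 0.26. Both signals of a point come from the same array, and the correlations are given with no test.

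Many other genes varied along the same line. The first principal component of the 24 aged arrays, computed without the 5 genes, held 18.7% of their variance. Its sign is arbitrary and was set, in each age, to make its correlation with Zfp296 positive. Vasn had a correlation of 0.95 with it and Zfp296 of 0.88, against 0.31 for Nrtn, 0.24 for Nrep and 0.15 for Itih5. Without the 2 arrays most distant on the component these were 0.94, 0.86, 0.46, 0.45 and 0.18. Among the genes most closely tied to it were Zfp131 (0.95) and Ncl (0.94), the gene of nucleolin, at one end and Tuba1a (-0.93), an alpha tubulin, and the nuclear long RNA Neat1 (-0.90) at the other, whose levels differed between the ages by -0.01, -0.08, 0.18 and 0.39. From ZT0 to ZT20 the component averaged -0.16, -0.19, 0.16, 0.12, -0.04 and 0.11 in turn, which is low and high at much the same times as aged Zfp296. That likeness is part of their correlation over the same arrays and not a separate result. In young arrays the first component held 27.9% of the variance, and the correlations were -0.55 for Vasn and 0.42 for Zfp296. The part of this shared axis in the Zfp296 and Vasn results was not tested.

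**Figure D4:**
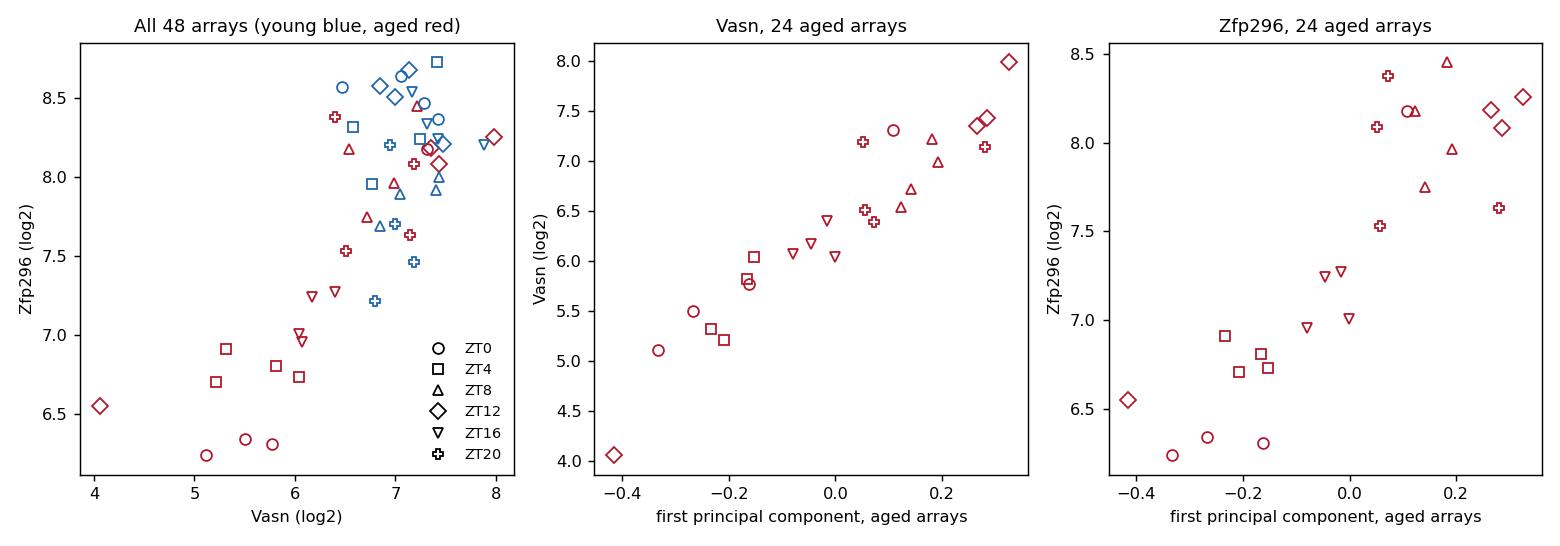
Left, log2 signal of Zfp296 against Vasn on each of the 48 arrays, young blue and aged red, with a symbol for each time of day. Middle and right, log2 signal of Vasn and of Zfp296 against the first principal component (no unit) of the 24 aged arrays, where both rise along the component (correlations 0.95 and 0.88) and aged ZT12 replicate 1 is the diamond at the far left.

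Each array carries GC-rich background probes, and for actin and for Gapdh it carries probe sets near both ends of the transcript. Their difference in signal (3' end less 5' end) is often read as RNA integrity. Whether it tracks integrity after the amplification used here was not tested. For actin it ran from -0.31 to -0.02 in young and from -0.29 to -0.04 in aged arrays, so the 5' end was the brighter. For Gapdh it ran from -0.29 to 0.08 and from -0.28 to -0.07. In aged arrays the correlation with the background was 0.01 for Vasn and -0.01 for Zfp296 but 0.54 for Nrtn, and in young arrays -0.04, 0.09 and 0.34. The background itself was lower in aged arrays, 6.19 ± 0.36 (SD, n = 24) against 6.38 ± 0.34 in young arrays, with the lower mean at 5 of the 6 times. With actin the correlation in aged arrays was -0.60 for Nrtn, -0.45 for Nrep, -0.33 for Zfp296, -0.21 for Vasn and -0.10 for Itih5, and in young arrays 0.13, -0.26, 0.12, 0.13 and 0.08. Without the 2 arrays of most distant actin difference in each age, the aged values were -0.48, -0.40, -0.36, -0.43 and -0.17. The young ones were then -0.04, -0.12, 0.01, 0.16 and -0.09. With Gapdh the correlation was -0.03, -0.12, -0.24, -0.30 and -0.21 in aged arrays, so for Nrtn and Nrep the actin and Gapdh differences gave different values. The part of these measures in the values of the 5 genes was not tested. Array medians lay between 4.78 and 5.04, the correlation of an array with the others had a median of 0.985 and a lowest value of 0.960, and the arrays of lowest weight were aged ZT12 replicate 1, young ZT0 replicates 2 and 3 and young ZT4 replicate 1. The number of arrays, 4 for each age and time, limits the precision of every value at a single time.

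The genes nearest to each member were ranked by the correlation of deviations from the mean of each age and time over the 48 arrays. For Vasn these were Zxdb (0.93), Zbtb2 (0.88) and Pias2 (0.87), and for Zfp296 Timm29 (0.82), Ada (0.81), the gene of adenosine deaminase, and Rnf227 (0.81). Without the 2 most distant arrays they were 0.88, 0.74 and 0.75 for Vasn and 0.70, 0.65 and 0.64 for Zfp296. Rnf227 had an age difference that changed with time as well (adjusted p = 0.0124, limma), while Timm29 and Ada were at 0.696 and 0.0889. The nearest genes of the others were looser matches: Rxylt1 (0.68), Zfp787 (0.68) and Ticam1 (0.67) for Nrtn, Pfn2 (0.62), Shisa2 (0.61) and Plin2 (0.60) for Nrep, and Ccl19 (0.59), Il12rb2 (0.58) and Tnfrsf14 (0.57) for Itih5.

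Around Nrtn, the GDNF family ligands and receptors were lower in aged cells or did not pass the test. Of 11 listed genes 8 were tested, 3 were lower in aged cells at an adjusted p under 0.05 (limma) and none was higher, with a median difference of -0.13 against -0.00 over all tested genes. Over all tested genes 8.73% were lower and 9.89% higher, the shares to set beside the counts of this and the following lists. No list was tested as a set. Gdnf, the founding ligand, fell by 0.42 ± 0.09 (SE, adjusted p = 0.000328), and its age difference also changed with time of day (interaction, adjusted p = 0.0139). Ret, the shared receptor, fell by 0.17 ± 0.05 (adjusted p = 0.0234) and Artn, the ligand artemin, by 0.15 ± 0.05 (adjusted p = 0.0435). Gfra2, the co-receptor of neurturin, read 4.60 in the young and 4.61 in the aged group (limma, adjusted p = 0.962). Both Ret, at 4.58 and 4.41, and Gfra2 were not far above the dim limit of 3.96.

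Among 13 other neurotrophic factors and receptors, 7 were tested, 1 was lower and none higher, with a median difference of -0.06. Ptn, the secreted growth factor pleiotrophin, fell by 0.30 ± 0.08 (SE, adjusted p = 0.00528 by limma). Ntrk2, the BDNF receptor, differed by -0.15 ± 0.07 (adjusted p = 0.129) and Ngfr, the shared neurotrophin receptor, by -0.10 ± 0.09 (adjusted p = 0.475). The age difference of Ngfr changed with time of day (interaction, adjusted p = 0.000914).

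Around Itih5, the hyaluronan genes showed some rises and no falls past the threshold. Of 23 listed 18 were tested, 3 were higher and none lower, with a median difference of -0.01. The shares over all tested genes were 9.89% higher and 8.73% lower. Cemip2, a cell surface protein of hyaluronan breakdown, rose by 0.48 ± 0.07 (SE, adjusted p = 9.46e-07 by limma), Hyal1, a hyaluronidase, by 0.25 ± 0.06 (0.0018) and Lyve1, a hyaluronan receptor, by 0.24 ± 0.06 (0.00203). The related heavy chains Itih1 and Itih2 differed by -0.02 ± 0.04 and -0.01 ± 0.04 (adjusted p = 0.731 and 0.924), and Itih3 and Itih4 were left out as dim.

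Around Vasn and Nrep, 25 of 30 TGF-beta pathway genes were tested, 3 were higher and 3 lower, with a median difference of 0.04. The shares over all tested genes were 9.89% higher and 8.73% lower. Ltbp1, which tethers latent TGF-beta to the matrix and is itself among the falls that surround these members, fell by 1.67 ± 0.11 (SE, adjusted p = 6.98e-16 by limma). Tgfbr2, the type 2 receptor, rose by 0.39 ± 0.06 (2.15e-06) and the ligand Tgfb1 by 0.40 ± 0.08 (0.000125). The other calls, named after their values were seen, were Itgb6 (0.77 ± 0.24), an integrin chain that activates latent TGF-beta, Smurf2 (-0.16 ± 0.05), a ubiquitin ligase of the pathway, and Bambi (-0.32 ± 0.11), a decoy receptor. Adam17, the protease that sheds vasorin, stood at 9.44 and 9.42.

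**Figure D5:**
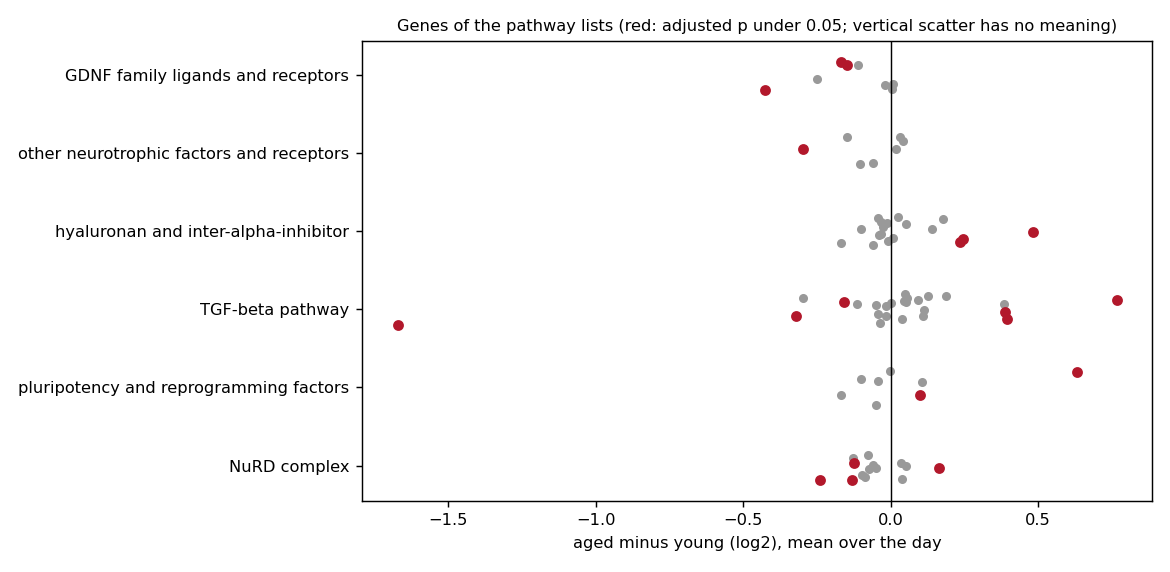
Aged minus young log2 difference, averaged over the day, of each tested gene of the 6 pathway lists, with red points for an adjusted p under 0.05 (limma). The 5 members are in none of the lists, and Ltbp1, at -1.67 in the TGF-beta list, is the far left point.

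Around Zfp296, 8 of 15 pluripotency and reprogramming factors were tested, 2 were higher and none lower, with a median difference of -0.02. Klf2 rose by 0.63 ± 0.15 (SE, adjusted p = 0.00176 by limma) and Klf4, also a factor of epidermal differentiation, by 0.10 ± 0.03 (adjusted p = 0.0382), while Mycn was at -0.17 ± 0.07 (0.0928). Pluripotency factors such as Nanog, Lin28a, Esrrb and Sox2 were left out as dim. All 14 NuRD genes were tested, 3 were lower and 1 higher, with a median difference of -0.08. Gatad2b fell by 0.24 ± 0.04 (adjusted p = 2.83e-05), Cdk2ap1 by 0.13 ± 0.04 (0.0148) and Gatad2a, named after its value was seen, by 0.13 ± 0.04 (0.0171), while the histone-binding Rbbp4 rose by 0.17 ± 0.04 (0.00419). None of the genes of these last 2 lists had an age difference that changed with time past the threshold.

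Markers of cell types were measured in the same fit, with 16 lists, where 9.89% of all tested genes were higher and 8.73% lower. Basal keratinocyte markers had a mean signal of 11.45 to 11.63 over the young arrays and 11.41 to 11.70 over the aged arrays. All 9 were tested, 2 were higher (Itgb4 and Krt14) and 1 was lower (Krt15). Suprabasal markers had 2 of 8 lower, Lor (-0.75) and Grhl3 (-0.39), and list means of 9.08 to 9.65 and 8.93 to 9.58. Of 10 fibroblast markers 4 were tested and 1 was higher, Thy1 (0.65), with list means of 5.16 to 5.79 in young and 5.47 to 5.93 in aged arrays, and Col3a1, Dpt, Lum, Pdgfra and Twist2 were left out as dim. Thy1 read 9.09 in young cells, while the other tested fibroblast markers read 4.21 to 4.49 and differed by -0.07 to 0.03. The Schwann cell list had 1 of 3 higher (Pmp22, 0.43) at 6.29 to 7.01 and 6.65 to 7.17, the pericyte and smooth muscle list 1 of 5 higher (Acta2, 0.46) at 4.42 to 4.97 and 4.52 to 5.21, and the Merkel cell list 1 of 4 lower (Krt8, -0.32) at 4.01 to 4.61 and 3.96 to 4.44. Pmp22 read 10.1 in young cells, while the other tested Schwann cell markers read 4.67 and 5.40 and differed by 0.08 and 0.02.

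Of the remaining lists, hair follicle bulge had 1 higher (Tcf7l1) and 1 lower (Lhx2) of 5, and T cells 2 higher (Cd3e and Cd3g) of 4. Upper follicle and sebaceous gland (Scd1, of 6), hair matrix and shaft (Krt25, of 4) and Langerhans and myeloid cells (Epcam, of 4) each had 1 higher. Epcam read 10.21 in young cells, while the other tested Langerhans and myeloid markers read at most 5.62 and differed by -0.09 to -0.04. Endothelium (3 tested), melanocyte (2), skeletal muscle (4) and red blood cell (3) had none past the threshold in the limma fit, and no adipocyte marker was bright enough to be tested. The part of these shifts in the falls of the 5 genes was not tested.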

How the data were processed

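The deposited values are log2 probe set signals that the authors made with RMA, per the submitters' processing notes; whether all arrays were normalised together is not given in the sources used here. Per the labels, the WTA2 kit amplified 25 ng of TRizol-extracted RNA over 17 cycles, before 8 µg of cDNA was fragmented and given a biotin label. Values were used as deposited. Each of 17097 genes was represented by its brightest probe set, the lowest 25% of means (under 3.96) were left out, and 12823 genes were fitted in limma 3.58.1 (R 4.3.3) with a mean, cosine and sine (24 h) per age, and with 12 groups of age and time for the interaction and for time as separate groups. P values were adjusted by Benjamini-Hochberg, threshold 0.05. The fits were tested on simulated data. All probe sets of the members were also fitted among 28898 probe sets. Named genes are the members, the genes ranked among their falls, up to 3 genes of smallest p per pathway list, the 3 nearest genes per member, and up to 2 markers a direction per cell type. Outside this rule, Gfra2, Itih1, Itih2 and Adam17 are named for their ties to members, dim list genes as left out, and genes of the first principal component and further list calls after their values were seen. Members and lists were chosen with earlier results of these data known. Lists held 106 pathway and 121 cell type genes. Alternatives covered filter, probe sets, scaling, weights, moderation, replicate block, time coding, each age alone and arrays left out. Replicate numbers 1 to 4 of the labels recur in every group; residuals of same-numbered arrays correlated at -0.0007 on average and those of other pairs at 0.0009, so no pairing was assumed.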

Additional observations from a re-analysis of the deposited data

Results flagged for a closer look

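The age difference of Zfp296 changed with the time of day (age-by-time interaction, adjusted p = 0.00152 by limma). It was -1.74 at ZT0 and 0.26 at ZT20 (aged minus young, log2).

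In 12 of the 84 groups of 4 arrays (a probe set at an age and time), 1 array stood apart, with a gap to the next, as a share of the range, above Dixon's critical value. Chance gives this in about 1 in 20 groups, and probe sets of 1 gene share their arrays. Aged ZT12 replicate 1 was low for Zfp296 (6.55, the next 8.08) and for both Vasn probe sets (4.06, the next 7.35, and 5.03, the next 6.18). Aged ZT0 replicate 4 was high for Zfp296 (8.18, the next 6.34), and aged ZT0 replicate 2 was low for Nrtn (5.11, the next 5.67). For the dimmer Vasn probe set young arrays stood apart at ZT4 (6.35), ZT12 (6.66) and ZT16 (6.25). For the dimmer Itih5 probe set young arrays were low at ZT4 (5.80) and ZT16 (6.37) and 1 aged array was high at ZT4 (5.30). Young ZT12 replicate 3 was high for Nrep (8.57, the next 7.83).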

How the results depend on the processing

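The falls, whose direction the choice of genes sets, ranged over the alternatives from -1.20 to -1.13 for Nrtn, -1.05 to -0.98 for Itih5, -0.93 to -0.80 for Nrep, -0.84 to -0.66 for Zfp296 and -0.85 to -0.62 for Vasn. The Nrtn cosine in young cells and the time differences of Nrep in both ages and of Zfp296 in aged cells passed in all 58. With array weights the count of genes was 2327 (804 with equal weights) for rhythm in young, 602 (174) for rhythm in aged, 4 (0) for their difference, 1573 (332) for the interaction, and 4859 (2242) and 3598 (1072) for time in young and aged cells. Without the 4 arrays of lowest weight 438 were rhythmic in aged cells, 540 had an interaction and 2113 differed between times in aged cells. The causes were not tested. With those weights the aged Zfp296 cosine had an adjusted p of 0.0489 (limma), and with each age fitted alone time in young cells had 0.0146 for Itih5 and 0.00176 for Zfp296.

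With a change of at least 1.5 times also asked for, 30 genes were lower and 140 higher in aged cells. Among the lists this left 0 GDNF family, 0 other neurotrophic, 1 TGF-beta and 0 NuRD genes lower, and 0 hyaluronan, 1 TGF-beta, 1 pluripotency and 0 NuRD genes higher. The mean of all probe sets gave 2 other neurotrophic, 5 TGF-beta and 1 pluripotency genes lower, time as a factor 1 hyaluronan gene lower, and leaving out the lowest 50% of gene means 1 GDNF family gene lower. Arrays centred on their median, and the removal of the 4 arrays, gave 1 pluripotency gene higher.

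Leaving out 1 array at a time gave 116 to 314 genes with a rhythm in aged cells (314 without aged ZT12 replicate 1), 0 to 4 with a rhythm difference (4 without aged ZT20 replicate 4) and 248 to 573 with an interaction (573 without aged ZT0 replicate 4, 558 without aged ZT12 replicate 1). A rhythm difference appeared in 2 genes when young ZT12 replicate 2, young ZT0 replicate 2 or aged ZT0 replicate 1 was left out, and in 1 gene when that was young ZT12 replicate 1, aged ZT12 replicate 1 or aged ZT0 replicate 2. Pluripotency genes were 0 to 1 lower (1 without young ZT20 replicate 2) and 1 to 2 higher (1 without young ZT0 replicate 3 or 4, ZT4 replicate 1, ZT12 replicate 2 or 3, ZT16 replicate 1 or ZT20 replicate 4, or aged ZT0 replicate 1, ZT4 replicate 1, ZT8 replicate 3, ZT16 replicate 3 or 4 or ZT20 replicate 3).

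With the replicate block 1079 genes were lower and 1228 higher in aged cells and 313 had an interaction, with an adjusted p of 0.000875 for Zfp296 (limma). The block changed no call of a member. Same-numbered mice did not deviate together, so the number was not taken to pair them. The sources used here do not give the dates of harvest, the purity of the cells or whether both ages were normalised together, and the number of 4 mice a time limits what single times can show.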
